A study of Rattus norvegicus with 3 samples.

Results

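Marker genes of the Schwann lineage and of immature glia were followed on expression arrays of cultured rat Schwann cell precursors. They are 7 genes, chosen as Ensembl rat gene identifiers, listed for Sox10, Ngfr, S100b, Gfap, Gap43, Vim and Nes. All 7 were found among the 20174 gene probes of the array, each with a single probe. The array names its probes by identifier only. In the rat gene table used here the column for Ensembl identifiers was empty, so 0 of the 20174 identifiers could be matched. The pairing of each identifier with its symbol is therefore that of the list and was not checked. A symbol below means the probe whose identifier was listed for that gene.

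Total RNA came from 3 samples of a single group, 1 array each, labelled as Schwann cell precursors in normal culture conditions and grown in modified Sato medium. No sex, age, strain or animal was given for them. The treatment text of the same labels names oligodendrocyte precursors instead, kept in this medium for around a week. The labels do not say whether each sample is a culture or an animal of its own, so p-values measure only the spread between these samples, which may be technical, and there is no second condition to compare with.

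Schwann cell precursors are glial cells of the embryonic nerve that descend from the neural crest and give rise to immature Schwann cells. Sox10, a transcription factor, is needed throughout this lineage. Ngfr, the low-affinity neurotrophin receptor p75, marks neural crest cells, precursors and non-myelinating Schwann cells. S100b, a calcium-binding protein, and Gfap, an intermediate filament protein, appear later, with S100b marking the step to immature Schwann cells and Gfap rising in immature and non-myelinating Schwann cells. Gap43 is a membrane protein of growth cones that immature and non-myelinating Schwann cells also make. Vim and Nes encode vimentin and nestin, the intermediate filament proteins of many immature and dividing cells. Oligodendrocyte precursors also express Sox10, vimentin and nestin, so signal from these genes does not separate the cell types that the labels name. Whether the other listed genes separate these cell types was not tested, since there is only a single group.

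Of the 7 probes, 6 gave signal above blank spots on all 3 arrays, and the probe listed for Gfap did so on none. Of all gene probes, 80.4% had signal above blank spots on every array, so 6 of 7 is near the share of the array as a whole. A probe counted as above background when its spot median, in scanner units with no background subtracted, exceeded the trimmed mean of the array's blank spots by 2 SD. These thresholds were 56.8, 58.1 and 65.4 units in replicates 1, 2 and 3. With the higher threshold of the negative control spots, 63.1, 64.9 and 69.0 units, the same 6 probes were above background on all arrays, against 63.7% of all gene probes.

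**Figure D1:**
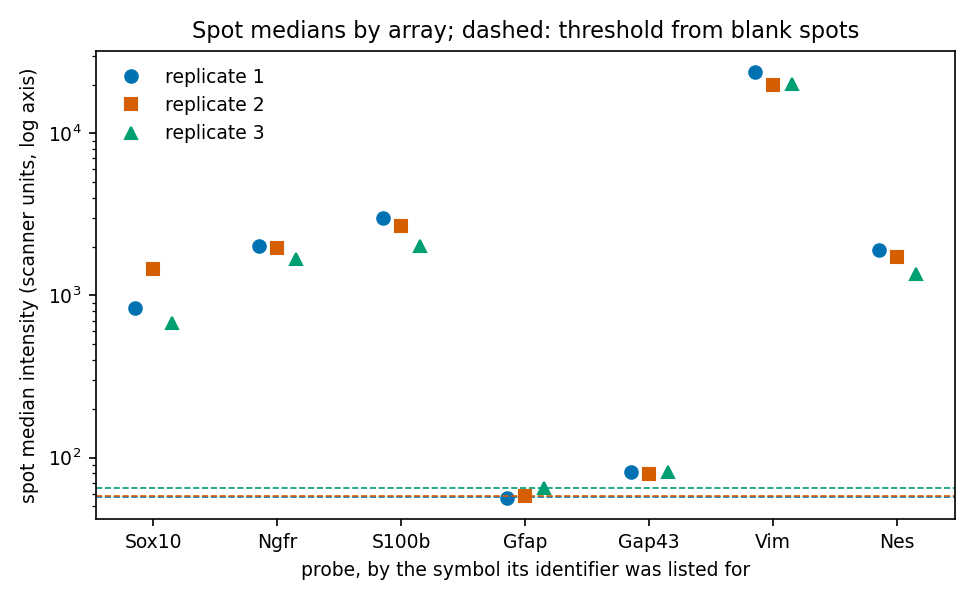
Spot median intensity (scanner units, log axis) of the 7 probes on replicates 1, 2 and 3, with each array's blank threshold as a dashed line. The Vim probe lies between 19755 and 23878 units, the Gap43 probe between 79.4 and 81.7, and the Gfap probe just under the threshold of each array.

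The levels of the 6 detected probes fell into 3 ranges of signal. Vim was among the brightest probes on the array, Sox10, Ngfr, S100b and Nes had 92.1% to 97.0% of gene probes below them by mean level, and Gap43 lay near the middle. Rank is given as the percentage of the 20174 gene probes that were dimmer on the same array. It orders probe signals, which also depend on how well each probe binds, and is not an order of transcript amounts. Levels were compared between arrays after background correction with an offset and quantile normalization, and are given as normalized log2 intensity.

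**Figure D2:**
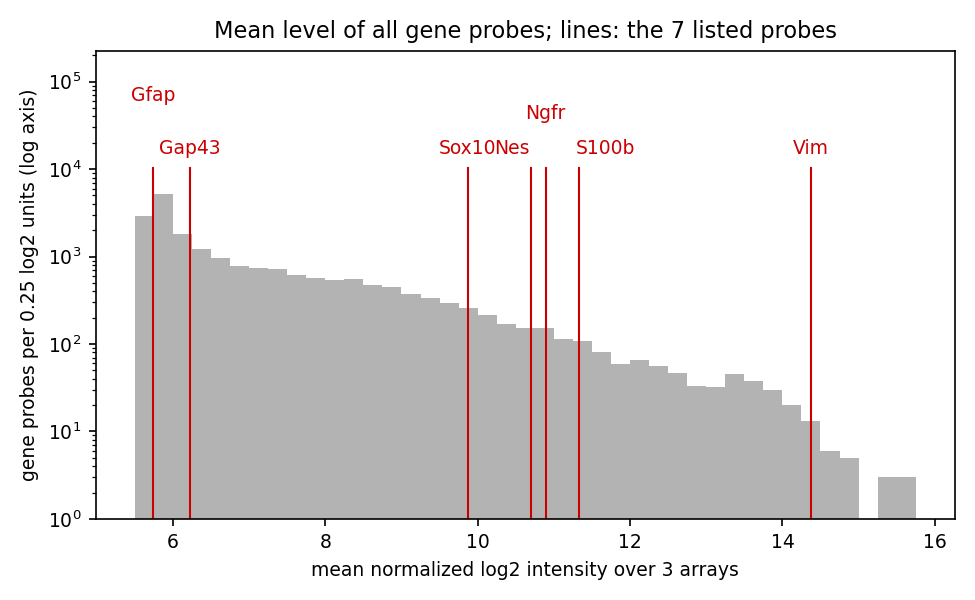
Number of gene probes (log axis) by mean normalized log2 intensity over the 3 arrays, in bins 0.25 wide. Lines mark the 7 probes: Gfap (5.74) and Gap43 (6.22) stand in the crowded low range, Sox10 (9.87), Nes (10.70), Ngfr (10.89) and S100b (11.33) in the sparse upper range, and Vim (14.37) near its end.

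The transcription factor of the list is Sox10, identifier ENSRNOG00000011305. Its spot medians were 835, 1464 and 679 units in replicates 1, 2 and 3. Replicate 2 was the high sample, and the other two lay close together. In rank, 90.2%, 94.5% and 90.8% of gene probes were dimmer in replicates 1, 2 and 3. The normalized log2 levels were 9.52, 10.44 and 9.64, with a mean of 9.87 ± 0.50 (SD, n = 3). Replicate 2 exceeded the mean of the other samples by 0.85 on the log2 scale, a ratio of 1.81, whereas replicates 1 and 3 differed by 0.12.

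The receptor of the list is Ngfr, identifier ENSRNOG00000005392. Its spot medians were 2015, 1970 and 1678 units in replicates 1, 2 and 3. After normalization the levels were 10.84, 10.82 and 11.02, with a mean of 10.89 ± 0.11 (SD, n = 3). Replicate 3 was thus the dimmest in scanner units and the highest after quantile normalization; with median scaling it was the lowest. Of the gene probes, 95.8%, 95.7% and 96.2% were dimmer.

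S100b, the calcium-binding protein of the list, has the identifier ENSRNOG00000001295. Its probe read 3017, 2682 and 2014 units in replicates 1, 2 and 3. Normalized levels of 11.44, 11.24 and 11.30 gave a mean of 11.33 ± 0.10 (SD, n = 3). The span of 0.20 between highest and lowest sample was the same as that of Ngfr to this precision. S100b ranked above 97.2%, 96.8% and 96.9% of gene probes and was the second brightest of the 7 probes on every array.

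Among the filament genes, Vim (ENSRNOG00000018087) had by far the brightest probe of the 7. It read 23878, 19755 and 20239 units in replicates 1, 2 and 3 and stood 19th, 45th and 18th from the brightest of all gene probes. The normalized levels of 14.51, 14.07 and 14.54 gave a mean of 14.37 ± 0.26 (SD, n = 3). Here replicate 2 was the low sample, with a difference of -0.45 from the mean of the other samples on the log2 scale.

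Nes (ENSRNOG00000018681), the nestin gene, gave 1903, 1738 and 1358 units. Its normalized levels of 10.74, 10.67 and 10.69 were close to each other, with a mean of 10.70 ± 0.036 (SD, n = 3). In rank, 95.5%, 95.3% and 95.4% of gene probes were dimmer. The mean levels of Nes and Ngfr, neighbours in the order, differed by more than the SD of either probe but less than the Ngfr range. Since probes differ in binding, no order of their transcripts was drawn.

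Gfap (ENSRNOG00000002919), the third filament gene, had spot medians of 56.7, 58.0 and 64.5 units in replicates 1, 2 and 3. These lay under the thresholds by small margins (differences of -0.16, -0.14 and -0.85 units). All 3 values were nevertheless above the blank mean, by 1.31, 1.05 and 0.694 units, which is 1.78, 1.77 and 0.898 times the SD of the trimmed blank spots. In replicate 2 the call depended on which spots set the threshold: from the positions labelled blank on all arrays it was 57.8 units, and the Gfap probe was then above it on that array alone. The arrays had 1344, 5808 and 1344 blank spots, so shares of them do not cover the same positions. Of these spots, 8.93%, 9.37% and 23.5% were brighter than this probe. Its rank was 13.7%, 9.68% and 9.76% of gene probes dimmer, and 7.91% of all gene probes were, like it, above background on no array. The deposited value table lists no value for it in any sample. Gfap signal was thus not detectable by this probe at this background, which does not show that the transcript was absent.

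Gap43 (ENSRNOG00000001528) was the dimmest of the detected probes. It read 81.7, 79.4 and 81.5 units in replicates 1, 2 and 3, or 1.48, 1.40 and 1.28 times the blank mean. The excess over the blank mean was 26.3, 22.5 and 17.7 units, many times the spread of blank spots. None of the 96 negative control spots of any array reached it: the brightest of them read 65.8, 65.0 and 69.3 units. The normalized levels of 6.24, 6.22 and 6.19 gave a mean of 6.22 ± 0.022 (SD, n = 3), but the offset compresses differences of so dim a probe. After plain subtraction of the blank mean, without an offset, its SD was 0.073. On each array 48.8%, 48.4% and 47.6% of gene probes were dimmer.

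The Gap43 probe sits beside a far brighter spot, whose median was 18356, 18706 and 12093 units in the 3 arrays. The local background measured around the Gap43 probe was 78.4, 56.5 and 70.9 units, against medians of 50.5, 51.1 and 58.8 units around blank spots. The Gap43 probe was compared with spots without a gene probe (labelled blank or no probe) with a neighbour of at least 10000 units. There were 297, 313 and 190 of them, with medians of 58.5, 57.2 and 65.5 units. Of these, 2 in replicate 1, 0 in replicate 2 and 0 in replicate 3 were as bright as the Gap43 probe. The median local background around these spots was 54.0, 51.2 and 60.7 units, below that around the Gap43 probe on each array. They therefore do not match its place, and what that place shows without a probe was not tested. This comparison was chosen after the values were seen.

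Spread between the samples differed among the probes. The 16226 gene probes that exceeded the blank threshold everywhere were tested, and their median SD was 0.093 on the log2 scale, and that of the 6 detected probes was 0.11. Sox10 had the widest spread of the 6, with an SD larger than that of 99.2% of the tested gene probes. Vim followed, above 89.7%. Ngfr (55.8%) and S100b (53.8%) were in the middle, and Nes (22.4%) and Gap43 (11.7%) below it, though the offset compresses the Gap43 SD.

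Because bright probes vary more on this scale, each SD was also set against the SD that limma fits for genes of the same level. Sox10 had 2.20 times the fitted SD of 0.23, and Vim 1.11 times the fitted 0.24. Ngfr reached 0.453, S100b 0.428, Gap43 0.26 and Nes 0.149 times the fitted SD of their level. In limma's variance test across all tested gene probes, 0 of the 6 had a Benjamini-Hochberg adjusted p under 0.05, against 0.0123% of all tested probes. At an unadjusted p under 0.05 the test called 1 of the 6, Sox10, against 5.74% of all tested probes. The Sox10 p was 0.0271 unadjusted and 0.781 after limma's Benjamini-Hochberg adjustment, and the adjusted values of the others ran from 0.995 to 0.998. With a single group this test only asks whether a gene varied more between these samples than genes of its level.

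**Figure D3:**
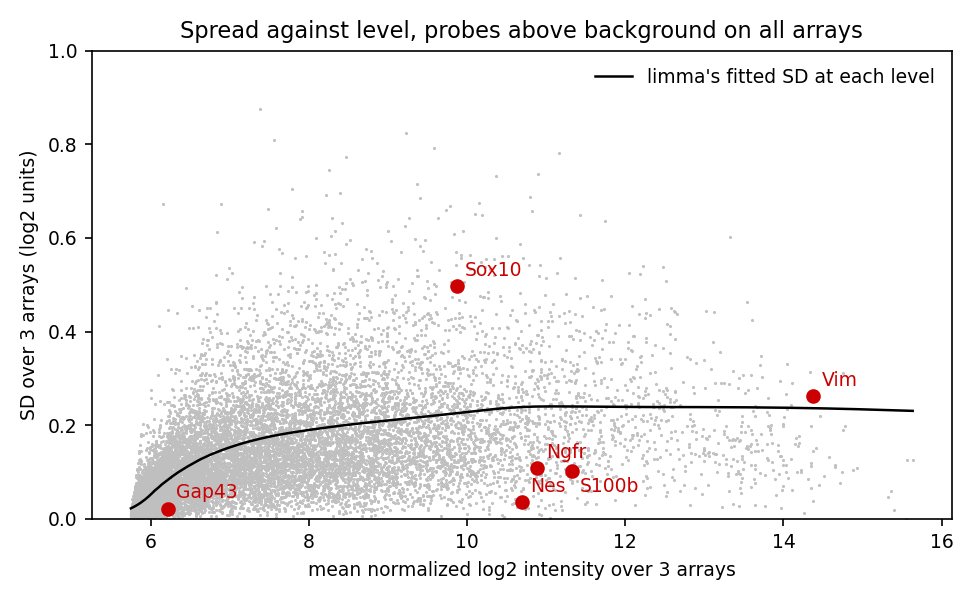
SD over the 3 arrays (log2 units) against mean normalized log2 intensity. Grey points are the 16226 tested gene probes, the line is limma's fitted SD, and red points are the 6 detected probes. Sox10 (0.50) stands well above the line, Vim (0.26) just above it, and the other 4 below it.

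No detected probe differed by 2-fold or more between its highest and lowest sample, against 0.622% of all tested gene probes. Sox10 came nearest, with a 1.89-fold range, followed by Vim with 1.38-fold. S100b and Ngfr had ranges of 1.15-fold each, Nes 1.05-fold and Gap43 1.03-fold. The offset compresses the Gap43 range, so it is not comparable with those of the bright probes. In the authors' value table Gap43 had a range of 1.37-fold, the same as Ngfr to this precision. Whether Sox10 counted depended on the processing: with median scaling in place of quantile normalization, in the authors' value table and with the local background, Sox10 passed 2-fold. Without replicate 2 the Sox10 SD fell to 0.087, from 0.57 without replicate 1 and 0.66 without replicate 3. In this setting the spread of Sox10 thus rests on replicate 2, as the sample apart from the others. With the local background it is replicate 1 that stands apart, as the values further on show.

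The order of samples was not shared by the 6 probes. In normalized log2 levels the highest sample was replicate 1 for S100b, Gap43 and Nes, replicate 3 for Ngfr and Vim, and replicate 2 for Sox10. Each of the orders seen was also found in 11.2% to 20.2% of all tested gene probes. Median differences between arrays within printing blocks were small beside the Sox10 and Vim ranges but not beside those of Gap43 and Nes. Whether position on the array gave rise to them was not tested. In the printing block that holds the Sox10 probe, the median difference of replicate 2 from the other arrays was 0.028, and in the Vim block 0.019. In the Gap43 block the difference of replicate 1 was 0.061, more than the whole Gap43 range of 0.043. In the Nes block replicates 1 and 3 differed by -0.061 and 0.057, against a Nes range of 0.070. With block medians subtracted, a setting added after seeing the data, replicate 1 went from the highest to the lowest sample for Gap43 (6.20, against 6.23 and 6.21 in replicates 2 and 3). The Nes SD then rose from 0.036 to 0.069.

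In the authors' deposited value table the same probes gave another picture. There each value is the spot median less a constant, multiplied by a factor per array, and the factors were 0.467, 0.656 and 0.609 in replicates 1, 2 and 3. In that table replicate 2 was the highest sample for all 6 listed probes, as it was for 71.0% of all gene probes listed on all arrays. In quantile-normalized levels replicate 2 was highest for 1 of the 6 and for 39.9% of all tested gene probes. In unscaled spot medians it was highest for 1 of the 6, against 23.4% of all tested probes, and replicate 1 was highest for the other 5, against 39.2% of all tested probes.

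In the authors' normalized intensity, Sox10 had 364, 924 and 374 in replicates 1, 2 and 3, a mean of 554 ± 320 (SD, n = 3). Its highest sample was 2.54 times its lowest, a range of 2-fold or more that 16.3% of all listed gene probes also had. Ngfr had 915, 1256 and 983, and S100b had 1382, 1723 and 1187. The mean was 1051 ± 180 (SD, n = 3) for Ngfr and 1430 ± 271 (SD, n = 3) for S100b. Vim had 11117, 12928 and 12280, a mean of 12108 ± 918 (SD, n = 3), and with 1.16-fold the narrowest range of the 6. Nes had 862, 1103 and 788, and Gap43 had 12.3, 14.8 and 10.8. Their means were 918 ± 165 and 12.6 ± 2.03 (SD, n = 3).

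Whether replicate 2 was above or below the other samples thus depended on the processing for 4 of the 6 probes. Ngfr, S100b, Vim and Nes had differences of -0.11, -0.13, -0.45 and -0.046 on the log2 scale after quantile normalization, and 0.41, 0.43, 0.15 and 0.42 in the authors' table. With median scaling the difference was 0.10 for Ngfr, 0.12 for S100b, 0.12 for Nes and -0.15 for Vim. For Sox10 replicate 2 was higher in all 8 settings compared, by 0.82 to 2.24. For Gap43 it also exceeded the mean of the other samples in all 8, by 0.0062 to 0.36. The 0.0062, after quantile normalization, was under the Gap43 SD of 0.022. The 0.36 was that of the authors' table, in which replicate 2 was highest for 71.0% of gene probes listed on all arrays.

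**Figure D4:**
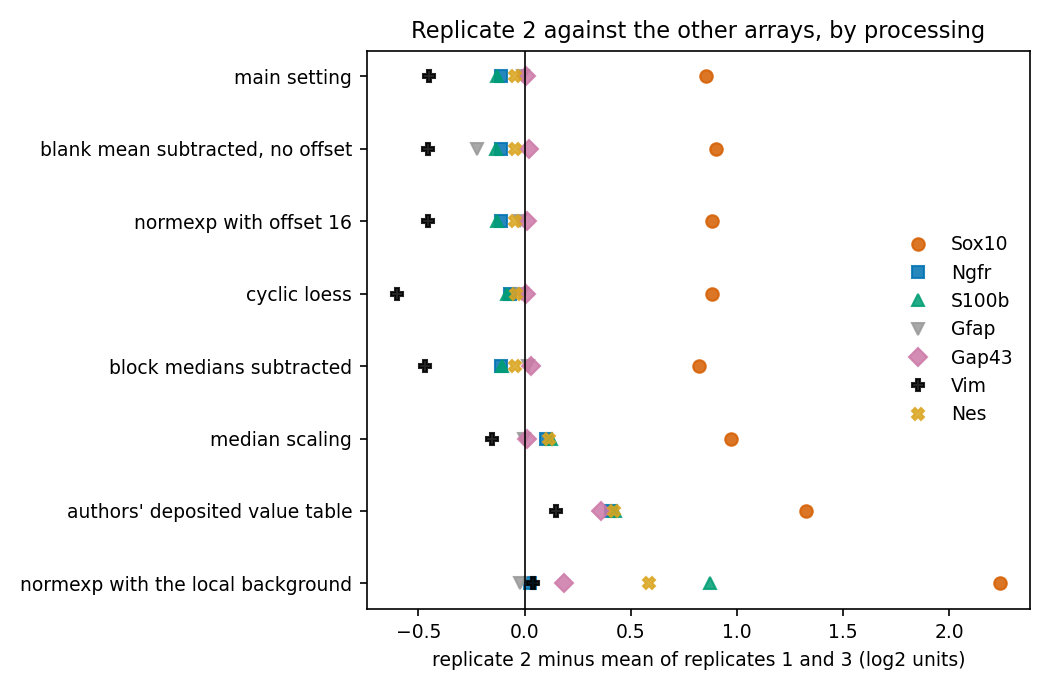
Difference of replicate 2 from the mean of replicates 1 and 3 (log2 units) for each probe under 8 ways of processing. Sox10 lies to the right of 0 in each, from 0.82 to 2.24, and so does Gap43, from 0.0062 to 0.36. Vim moves from -0.60 with cyclic loess to 0.15 in the authors' table. Gfap has no point in the authors' table.

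The local background beside a spot took up very different shares of the signal in the 3 samples. For Sox10 it was 833 units beside a spot of 835 in replicate 1, or 99.7% of the spot median, against 34.5% in replicate 2 and 61.2% in replicate 3. In replicate 1 this share was larger than at 96.8% of the gene spots brighter than 500 units. For Vim the shares were 75.4%, 4.0% and 30.5%, and for S100b 85.1%, 7.94% and 59.9%. Nes had 82.6%, 11.6% and 53.7%, and Ngfr 76.6%, 30.5% and 51.4%. Among all gene spots brighter than 500 units the median shares were 73.6%, 22.0% and 44.3% in replicates 1, 2 and 3, the same order as in these 5 probes. Gap43 and Gfap, near background, had 71.1% to 95.9% on every array.

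**Figure D5:**
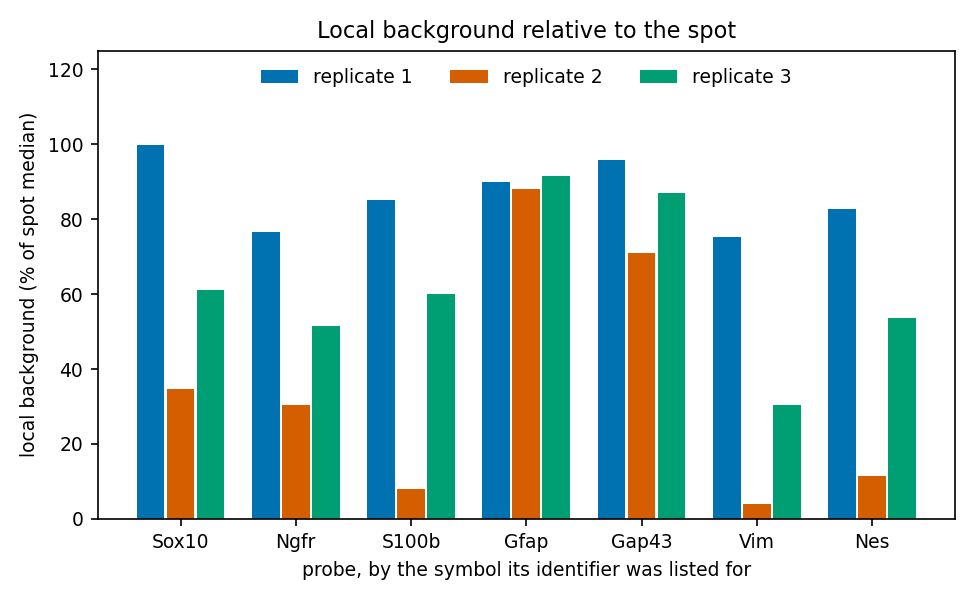
Local background as a percentage of the spot median for the 7 probes on the 3 arrays. Replicate 2 has the lowest bar for every probe, from 4.0% for Vim to 88.1% for Gfap, and the Sox10 bar reaches 99.7% in replicate 1.

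Taking the local background into account moved the mean log2 level and the absolute SD of Sox10 more than those of any other member. Its log2 levels became 5.89, 9.41 and 8.45 in replicates 1, 2 and 3, and its SD rose to 1.82. Replicates 2 and 3 were then closer to each other than either was to replicate 1. The SD was 0.53 for S100b, 0.38 for Nes, 0.41 for Vim, 0.14 for Ngfr and 0.13 for Gap43. In that setting Sox10 had an unadjusted p of 0.000804 and a Benjamini-Hochberg adjusted p of 0.198 in limma's variance test. In replicate 1, where Sox10 was low in that setting, the local background was nearly as high as the spot itself. Whether this alone set the low value was not tested. The mean level of Sox10 ranked above 84.2% of gene probes, against 92.1% without the local background, and that of Gap43 above 38.5%, against 48.0%. In replicate 1 the Gap43 level of 5.91 was then below the 5.96 of the Gfap probe, which was not above background; in replicates 2 and 3 Gap43 had 6.16 and 6.04, above the 5.92 of Gfap on each. The Gap43 variance p in limma was 0.0574 unadjusted and 0.906 after Benjamini-Hochberg adjustment in this setting.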

How the data were processed

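ISOGEN and RNeasy extraction, amino allyl amplification and Cy5 coupling are stated in the labels' protocols. Per the file headers, the scanner files give the median intensity of each spot and of its local background, with no subtraction and with a flag at each gain; the image software is not given in the sources used here. Linear intensities of the deposited value table were normalized by the authors. Each array has 27456 spots; the number of arrays, 3, limits the precision.

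The background threshold of an array was 2 SD over the mean of its blank spots, trimmed by 5% on each side, and probes with a failed flag were not counted as above it. Spot medians were corrected with limma's normexp (offset 50, no local background), gene probes were quantile normalized and log2 was taken. The variance test is limma's intercept-only fit with the tail p of the robust, level-dependent prior, adjusted by Benjamini-Hochberg over 16226 probes. It was tested on simulated data with normal noise at the fitted SD of each probe, and no other noise was tried. The simulated noise follows the test's own fit, so how the test behaves on the noise of these arrays was not tested. Values were computed with limma 3.58.1 in R 4.3.3 and drawn with matplotlib 3.10.9 under Python 3.11.15. All members are described, whatever their values. The members and the settings were chosen with earlier results of these data known. Lists of other cell types could not be placed on the array, since no identifier matched a symbol. Probe sequences were not used here.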

Additional observations from a re-analysis of the deposited data

How the results depend on the processing

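The number of members above background on all arrays (6) was the same with 3 SD, the negative control, no probe and always-blank thresholds, in the value table and without any array. Leaving out an array could not lower this count. The value table comes from the same scans and lists 16229 gene probes on all arrays, near the 16226 above the blank threshold. The number of members 2-fold apart (0) rose to 1 under median scaling, 1 in the value table and 2 with the local background (Sox10 and S100b), and 0 in the other settings, including 0 to 0 leaving out an array. The number passing limma's adjusted variance test stayed 0 in all 10 other settings, 0 to 0 leaving out an array. The Sox10 adjusted p ran from 0.198 with the local background to 0.988 without replicate 2, and its unadjusted p was above 0.05 without replicate 1 (0.0548) and without replicate 2 (0.593). Of 69 recomputed mean ranks, 58 moved by less than the spread between arrays. Settings that change only the offset or scaling nearly keep the order of probes within an array, so ranks could hardly move there. With the local background the ranks of all members except Vim moved by more. In the value table those of Ngfr, S100b, Gap43 and Nes did, and after blank subtraction that of Gfap. Ranks in the value table were taken among its 16229 listed probes and the others among all 20174, so those of the value table are not like for like. Chosen after seeing the data were the difference of replicate 2 from the other arrays as a measure and the subtraction of block medians. So were the always-blank threshold and the variance test with local background or in the value table. The deposited table and local background settings change background treatment and scaling together; which of these moves a value was not tested. No paired analysis was possible because there is only 1 group. Gfap is limited by signal over background.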
